A study of Mus musculus with 6 samples.

Results

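Prostanoids are short-lived lipid mediators that cells make from arachidonic acid and release onto neighbouring cells. The 10 genes described here encode enzymes that make them and receptors that read them, and they were taken by symbol: Ptgs1, Ptgs2, Ptges, Ptgis, Ptgir, Ptger1, Ptger2, Ptger3, Ptger4 and Tbxa2r. Each symbol matched 1 of the 21785 rows of the deposited table through its mouse Ensembl identifier (GENCODE M21, mm10), and all 10 were among the 21743 genes tested. RNA was measured by sequencing of 6 samples of pulmonary arterial smooth muscle cells (PASMCs) that were grown out of the lungs of C57BL/6 mice after small vessels had been loaded with iron particles. All 6 were kept for 48 h without medium supplements. The 3 stimulated samples then received bone morphogenetic protein 9 (BMP9, 1 ng/mL) together with BMP10 (5 ng/mL) in supplement-free medium for 6 h, and the 3 control samples received neither ligand. Each ligand was not given alone, so a change cannot be assigned to one of them. The sources used here give neither the age and number of the mice nor whether animals were pooled.

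The cyclooxygenases convert arachidonic acid to the common precursor prostaglandin H2, from which a separate terminal synthase makes each prostanoid. Prostacyclin relaxes vascular smooth muscle through its receptor IP and a rise in cyclic AMP, and stable prostacyclin analogues are used to treat pulmonary arterial hypertension. Thromboxane A2 constricts through its receptor TP. Prostaglandin E2 does either, depending on which of its receptors, EP1 to EP4, a cell carries.

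Levels are the deposited normalized read counts, and changes are on the log2(value + 1) scale, stimulated minus control, ± SE, from limma fitted to all 21743 genes with Benjamini-Hochberg adjusted p-values (threshold 0.05). The library totals of the values were 27295973 to 31903795, and the reads behind them were estimated at 23.3 M to 54.4 M. The smooth muscle markers Acta2, Tagln, Myh11, Cnn1, Des, Mylk, Lmod1 and Smtn were all detected, with a summed level of 42125 to 64049 in controls and 92489 to 194462 after stimulation. Markers of other cell types were detected as well. The 6 fibroblast markers summed to 293152 to 400011 in controls and 253523 to 454568 after stimulation, above the smooth muscle sum in each library. The 9 airway and alveolar epithelial markers summed to 8086 to 35865 and 3339 to 36983, highest in replicate 2 of each group. A sum over such a list does not give a share of cells. The 12 endothelial markers summed to 12223 to 45704 in controls and 9697 to 43516 after stimulation and were all highest in replicate 2 of their group. The 10 macrophage and monocyte markers summed to 95416 to 164058 and 142352 to 212227, and without Lyz2, which made up most of that sum, to 14402 to 25805 and 18891 to 32328. No endothelial and no macrophage marker was called by limma, and none was at 0 in every library. These calls are from the unpaired fit, in which so wide a spread between replicates can hide a change. They therefore do not show that the content of these cells stayed the same. In RNA from whole cultures, fewer cells of a type and less RNA per cell cannot be told apart. Whether 2 samples of a group stem from separate cultures or mice is not stated in the labels, and the spread behind each p-value may therefore be technical.

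The start regions of 3 enzyme genes are shown here because these genes moved apart after stimulation: Ptgs2 rose, Ptges fell and Ptgs1 was not called. Each line gives the 250 bases before the RefSeq start of the gene (GRCm38.p6, the build of mm10), 5′ to 3′ on the strand of the gene. The Ptgs2 window overlaps an exon of the noncoding gene Ptgs2os, and the RefSeq start of Ptges lies inside the longer span that GENCODE gives that gene. Capitals mark matches to TTGCGCAA (C/EBP element), GGCGCC (a GC element that BMP-activated SMADs are known to bind) and GGGCGG (GC box).
Ptgs2, chr1:150099781-150100030, plus strand: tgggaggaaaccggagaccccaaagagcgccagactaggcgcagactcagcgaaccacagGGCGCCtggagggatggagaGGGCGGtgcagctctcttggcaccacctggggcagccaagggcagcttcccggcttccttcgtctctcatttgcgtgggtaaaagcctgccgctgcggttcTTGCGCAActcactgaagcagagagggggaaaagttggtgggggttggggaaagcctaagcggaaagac
Ptges, chr2:30903298-30903547, minus strand: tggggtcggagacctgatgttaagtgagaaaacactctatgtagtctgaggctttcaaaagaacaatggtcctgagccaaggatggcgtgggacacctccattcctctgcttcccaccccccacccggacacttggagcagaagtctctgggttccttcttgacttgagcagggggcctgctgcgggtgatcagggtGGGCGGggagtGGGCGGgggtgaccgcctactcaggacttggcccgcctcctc
Ptgs1, chr2:36230176-36230425, plus strand: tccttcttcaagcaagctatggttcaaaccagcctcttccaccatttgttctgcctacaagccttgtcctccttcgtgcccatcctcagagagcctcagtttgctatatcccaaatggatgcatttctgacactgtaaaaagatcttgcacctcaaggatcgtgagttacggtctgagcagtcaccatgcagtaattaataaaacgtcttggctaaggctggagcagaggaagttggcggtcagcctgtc
The window of Ptgs2 held 1 match each of TTGCGCAA, GGCGCC and GGGCGG, and that of Ptges held 2 matches of GGGCGG. The search covered 300 bases, of which 50 lay after the start, on both strands and in 32851 RefSeq windows of the same length. TTGCGCAA occurred in 0.183% of all windows, GGCGCC in 11.9% and GGGCGG in 35.7%. In the part of the Ptgs2 window after the RefSeq start, which is not shown, the letters CGTCA, the core of a cyclic AMP response element, stood at bases 14 to 18 (20.8% of all windows held CGTCA). They overlapped the E-box CACGTG at bases 17 to 22 (7.15%). Whether transcription begins at the RefSeq start in these cells was not tested. The full element TGACGTCA (1.79% of windows), TATAAA (13.6%) and the AP-1 letters TGANTCA (7.81%) matched none of the windows of Ptgs2, Ptges and Ptgs1. The Ptgs1 window held no match to any of the 8 motifs searched. A match describes letters in a window and not the binding of a factor. RefSeq windows were matched for 8 of the 10 genes. None was available for Ptger1 or for Ptgis, which also rose, so the start of Ptgis could not be examined. Among the matched genes besides Ptgs2, Ptges and Ptgs1, GGCGCC was found only in the Ptger3 window, with 2 matches. GGGCGG was found in those of Ptgir, Ptger3, Ptger4 and Tbxa2r.

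Of the 10 genes, Ptgs2 and Ptgis rose, Ptges fell and 7 did not pass the test, against 13.4% of all genes tested that were called (8.61% higher and 4.75% lower). The 3 calls were all of enzyme genes, and none of the 6 receptor genes passed. The median log2 change of the 10 genes was -0.26, against -0.03 for all genes tested. The groups did not overlap for 5 of the 10, namely Ptgs2, Ptgis and Tbxa2r, which were higher after stimulation, and Ptges and Ptger4, which were lower. Among all genes tested, 33.2% had groups that did not overlap. The labels do not state whether samples that share a replicate number are paired. With this number as a block in the limma fit, as an alternative, 5 genes were called: Ptgs2 and Ptgis higher, and Ptges, Ptger4 and Ptgir lower. That fit called 26.8% of all genes.

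**Figure D1:**
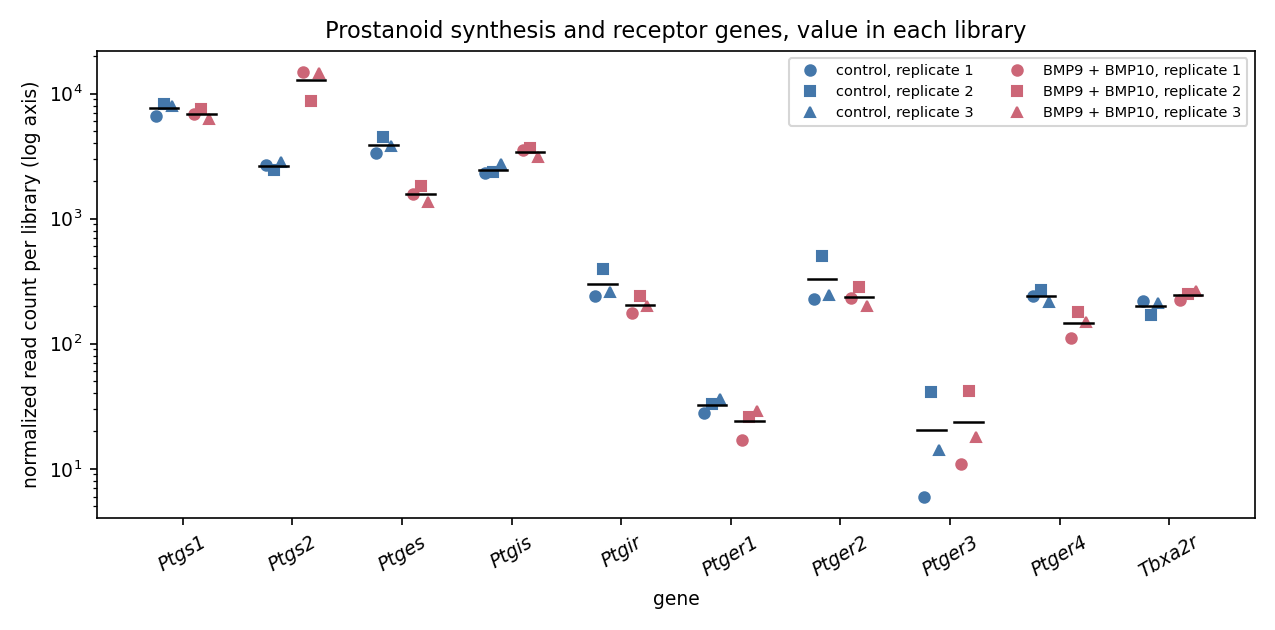
Normalized read count of each of the 10 genes in every library (log axis), with controls in blue, stimulated samples in red, the replicate number as the symbol and the group mean as a bar. Ptgs2 separates upward and Ptges downward, and the receptor genes lie well below the enzyme genes.

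Ptgs2 encodes cyclooxygenase-2, the inducible form of the enzyme, and showed the largest change of the 10 genes. It lies on chromosome 1 from 150100031 to 150108227 (mm10, plus strand). Its level was 2678, 2465 and 2843 in control replicates 1, 2 and 3 and 14916, 8703 and 14730 in stimulated replicates 1, 2 and 3. Every stimulated value was above every control value, and the lowest of the stimulated values was that of replicate 2. The mean went from 2662 ± 190 to 12783 ± 3535 (SD, n = 3 per group), a 4.80-fold rise of the means. The log2 change was 2.22 ± 0.21 (limma adjusted p = 0.00152), which ranked 137 among the rises of all genes tested. It was 2.48, 1.82 and 2.37 in replicate numbers 1, 2 and 3. Without both replicate 2 libraries it was 2.43 (limma adjusted p = 0.00318). The macrophage marker sum, most of it Lyz2, was 164058, 158418 and 95416 in control replicates 1, 2 and 3. In stimulated replicates 1, 2 and 3 it was 212227, 142352 and 187651. The part of macrophage RNA in the Ptgs2 rise was not tested.

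A noncoding gene, Ptgs2os, starts 67 bases upstream of Ptgs2 on the opposite strand, and its values were looked up after those of Ptgs2 were known. It was at 43, 21 and 27 in controls and at 89, 40 and 56 after stimulation. The groups overlapped, since the stimulated replicate 2 was below the control replicate 1, while within each replicate number the stimulated library was higher. The log2 change of Ptgs2os was 0.99 ± 0.39 (limma adjusted p = 0.148; 0.0174 with the replicate block). Its exons share no bases with those of Ptgs2. A more distant noncoding gene, Ptgs2os2, had a change of 0.12 ± 0.76 (limma adjusted p = 0.941).

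Ptgs1 encodes cyclooxygenase-1, the form that most tissues make constitutively. It was at 6687, 8234 and 7925 in controls and at 6839, 7501 and 6285 after stimulation. The groups overlapped, and the change was -0.15 ± 0.11 (95% interval -0.40 to 0.11, limma adjusted p = 0.437). To compare 2 genes roughly, values were divided by the length of all annotated exons in kilobases. On this scale Ptgs1 was at 1961 ± 211 and Ptgs2 at 581 ± 41.4 in controls, with no overlap. The transcripts that the cells made may be shorter than this length. Levels per kilobase of different genes, and the shares and orders drawn from them, are therefore approximate. After stimulation Ptgs2 was at 2791 ± 772 and Ptgs1 at 1770 ± 157 per kilobase, and their ranges overlapped. Ptgs2 was thus 25.4%, 20.2% and 23.3% of the summed cyclooxygenase level per kilobase in control replicates 1, 2 and 3, and 64.9%, 49.6% and 66.5% in the stimulated ones. The log2 ratio of Ptgs2 over Ptgs1 within a library, on which the scaling of a library has no effect, rose by 2.37 ± 0.34. The groups did not overlap (exact two-sided permutation test, p = 0.10, the smallest that 3 against 3 samples allow; 0.133 adjusted over 4 ratios).

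**Figure D2:**
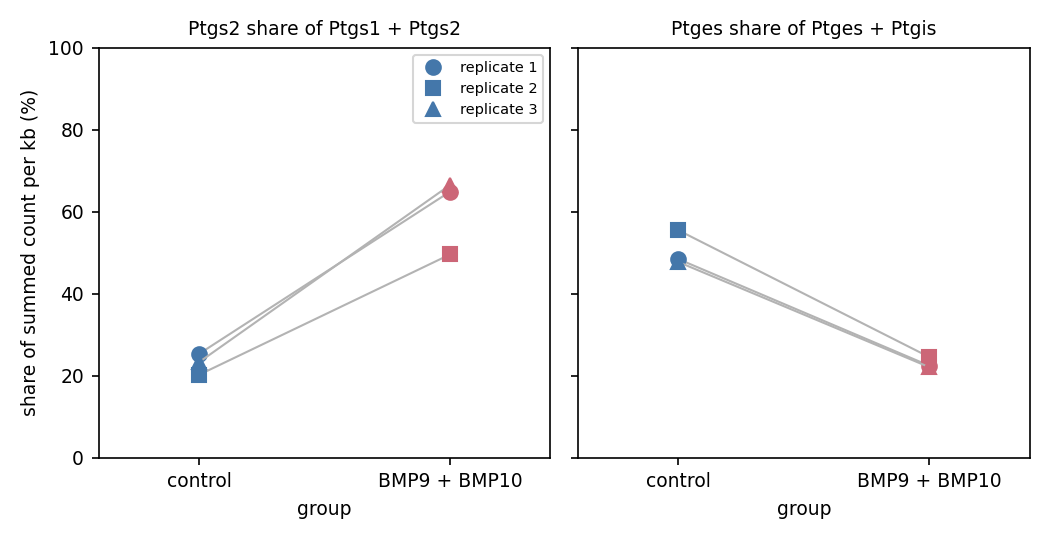
Share of Ptgs2 in the summed level of Ptgs1 and Ptgs2, and of Ptges in that of Ptges and Ptgis, in percent of the count per kilobase of exon, with 1 symbol per library and lines joining libraries of the same replicate number. The Ptgs2 share goes from between 20.2% and 25.4% to between 49.6% and 66.5%, and the Ptges share is lower after stimulation within each replicate number.

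Ptges encodes microsomal prostaglandin E synthase-1, the inducible terminal synthase that makes prostaglandin E2 from the product of the cyclooxygenases. It lies on chromosome 2 from 30889471 to 30929863 on the minus strand. Its level was 3371, 4474 and 3822 in controls and 1578, 1833 and 1350 after stimulation. Every stimulated value was below the lowest control, and replicate 2 was the highest in both groups. The mean went from 3889 ± 555 to 1587 ± 242 (SD, n = 3 per group), 2.45-fold lower, with a log2 change of -1.29 ± 0.15 (limma adjusted p = 0.00309). Within replicate numbers 1, 2 and 3 it was -1.09, -1.29 and -1.50. Without both replicate 2 libraries the change was -1.30 (limma adjusted p = 0.0122). So Ptgs2 and Ptges, which inflammatory stimuli are known to raise together in many cells, moved in opposite directions here. This does not hold for the other prostaglandin E synthase genes Ptges2 and Ptges3, named after their values were seen. Ptges2 changed by -0.07 ± 0.10 (limma adjusted p = 0.669). Ptges3 changed by 0.36 ± 0.12, without overlap (limma adjusted p = 0.107, and 0.0244 with the replicate block).

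Ptgis encodes prostacyclin synthase, a cytochrome P450 of endothelial and smooth muscle cells. It was at 2341, 2343 and 2731 in controls and at 3559, 3676 and 3107 after stimulation. The groups did not overlap, and the means were 2472 ± 225 and 3447 ± 300 (SD, n = 3 per group). The log2 change was 0.48 ± 0.10 (limma adjusted p = 0.0262), and 0.60, 0.65 and 0.19 in replicate numbers 1, 2 and 3. This call was the least firm of the 3. It was lost by limma with equal library totals (log2 change 0.31, adjusted p = 0.0882), without both replicate 2 libraries (0.40, 0.106) and when 1 library was left out, for each library except control replicate 3 (adjusted p from 0.0537 without stimulated replicate 3 to 0.102 without control replicate 1). Per kilobase of exon, Ptges and Ptgis were level in controls (989 ± 141 and 963 ± 87.5, with overlapping ranges), and after stimulation Ptgis was higher (1343 ± 117 against 404 ± 61.5, with no overlap). Ptges made up 48.5%, 55.5% and 47.8% of their sum in controls and 22.5%, 24.6% and 22.1% after stimulation. The within-library log2 ratio of Ptges over Ptgis went from 0.65 ± 0.25 to -1.13 ± 0.11, a difference of -1.77 ± 0.16, with no overlap (exact two-sided permutation p = 0.10, the smallest possible; 0.133 adjusted over 4 ratios).

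**Figure D3:**
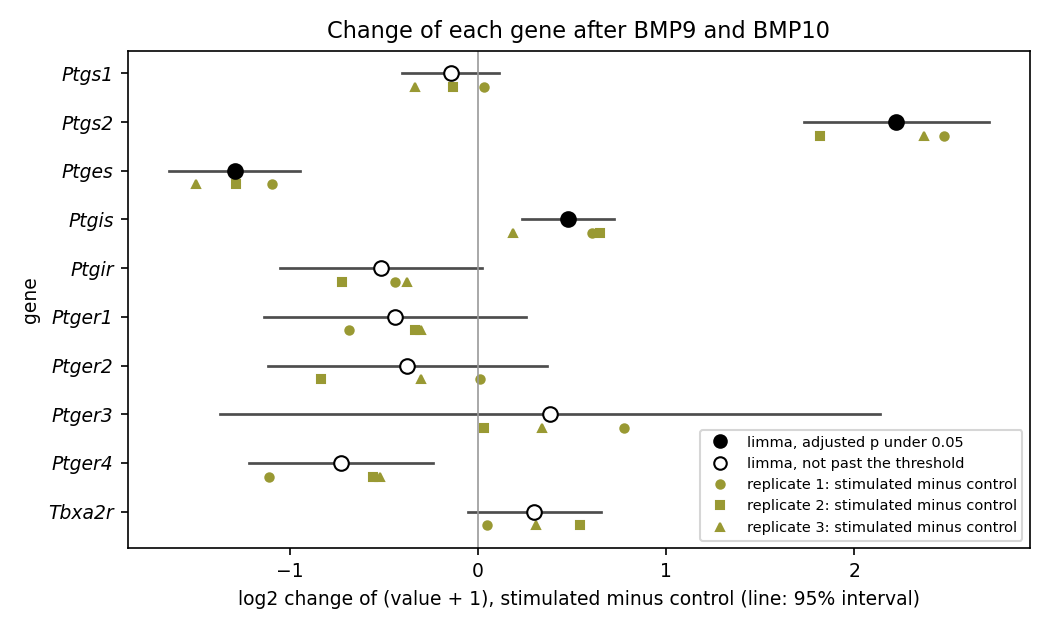
Log2 change of each gene, stimulated minus control, with its 95% interval from limma, where filled circles passed the threshold and small symbols give the change within each replicate number. Ptgs2, Ptges and Ptgis have filled circles, and the interval of Ptger4 also lies below 0.

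The receptor genes were expressed far below the enzyme genes. Per kilobase of exon, the 6 receptor genes were between 3.57 and 104 in controls, against 581 to 1961 for the 4 enzyme genes. In controls, 88.9% (Ptgs2) to 97.0% (Ptgs1) of all tested genes had a lower level per kilobase than the enzyme genes, and 14.7% (Ptger3) to 59.7% (Tbxa2r) had a lower one than the receptor genes. The order in controls was Tbxa2r (104 ± 13.5), Ptgir (89.8 ± 26.1), Ptger2 (62.9 ± 29.8), Ptger4 (36.2 ± 3.99), Ptger1 (5.92 ± 0.74) and Ptger3 (3.57 ± 3.22). In that order the ranges of Tbxa2r, Ptgir and Ptger2 overlapped from neighbour to neighbour, as did those of Ptger1 and Ptger3, and Ptger4 stood apart from both of its neighbours. After stimulation the order was the same. Tbxa2r was then at 128 ± 9.74 per kilobase and no longer overlapped Ptgir at 61.7 ± 9.86. The order of the receptor genes depends on their exonic lengths, which ran from 1919 bases (Tbxa2r) to 6648 bases (Ptger4). The undivided control means were 327 for Ptger2, 299 for Ptgir, 241 for Ptger4 and 200 for Tbxa2r.

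Ptgir encodes the prostacyclin receptor IP, which couples to the stimulatory G protein and raises cyclic AMP. It was at 239, 399 and 260 in controls and at 176, 241 and 200 after stimulation. The groups overlapped by a narrow margin, between control replicate 1 and stimulated replicate 2. The change was -0.51 ± 0.23 (95% interval -1.05 to 0.02, limma adjusted p = 0.19), and with the replicate block Ptgir passed (adjusted p = 0.0225). Without control replicate 2 the change of Ptgir was -0.29. Tbxa2r encodes the thromboxane receptor TP, which couples to contractile G proteins. It was at 218, 170 and 211 in controls and at 225, 248 and 262 after stimulation, without overlap. Its change was 0.30 ± 0.15 (95% interval -0.06 to 0.65, limma adjusted p = 0.243; 0.153 with the replicate block), and it was 0.13 under equal library totals and 0.19 when control replicate 2 was left out. The within-library log2 ratio of Ptgir over Tbxa2r was 0.13, 1.23 and 0.30 in controls and -0.35, -0.04 and -0.39 after stimulation. The difference in this ratio was -0.81 ± 0.36, with no overlap (exact two-sided permutation p = 0.10, the smallest possible; 0.133 adjusted over 4 ratios), and -0.48 without control replicate 2.

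Among the prostaglandin E2 receptors, Ptger4 and Ptger2 encode EP4 and EP2, which raise cyclic AMP. Ptger4 was at 241, 267 and 214 in controls and at 111, 181 and 149 after stimulation. The groups did not overlap, and the change was -0.73 ± 0.21 (95% interval -1.22 to -0.24), but it did not pass over all genes (limma adjusted p = 0.0626). Ptger4 passed with the replicate block (adjusted p = 0.0165), with equal library totals (-0.90, 0.0291) and with upper-quartile scaling (-0.81, 0.0392). Of its exonic bases, 16.5% are also exonic in opposite-strand genes, and the sources used here do not give the strand setting of the counting, so part of its level is uncertain. Ptger2 was at 229, 505 and 246 in controls and at 231, 283 and 199 after stimulation, with overlap. Its change was -0.38 ± 0.31 (95% interval -1.12 to 0.37, limma adjusted p = 0.49) and rested on control replicate 2, without which it was -0.01. The within-library log2 ratio of Ptger4 over Ptger2 differed by -0.35 ± 0.35 between groups, with overlap (exact two-sided permutation p = 0.40). It was -0.14 without control replicate 1, -0.18 without stimulated replicate 1 and -0.64 without control replicate 2. Of the summed level per kilobase of the 4 EP receptor genes, Ptger2 made up 56.3% ± 7.23 in controls and 60.2% ± 6.18 after stimulation (SD, n = 3 per group), and Ptger4 35.0% ± 7.71 and 28.9% ± 3.59.

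Ptger1 and Ptger3 encode EP1 and EP3, which act through calcium and through inhibition of cyclic AMP. Both were the lowest of the receptor genes. In controls, 20.6% of all tested genes had a lower level per kilobase than Ptger1 and 14.7% a lower one than Ptger3. Ptger1 was at 28, 33 and 36 in controls and at 17, 26 and 29 after stimulation (change -0.44 ± 0.30, limma adjusted p = 0.381). Since the strand setting of the counting is unknown, the level of Ptger1 is uncertain too. Ptger3 was at 6, 41 and 14 in controls and at 11, 42 and 18 after stimulation. Both replicate 2 libraries were high, and the change of 0.38 ± 0.74 (95% interval -1.37 to 2.14, limma adjusted p = 0.782) was small against the spread within each group. It changed sign without control replicate 1 (-0.23) or stimulated replicate 2 (-0.12).

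**Figure D4:**
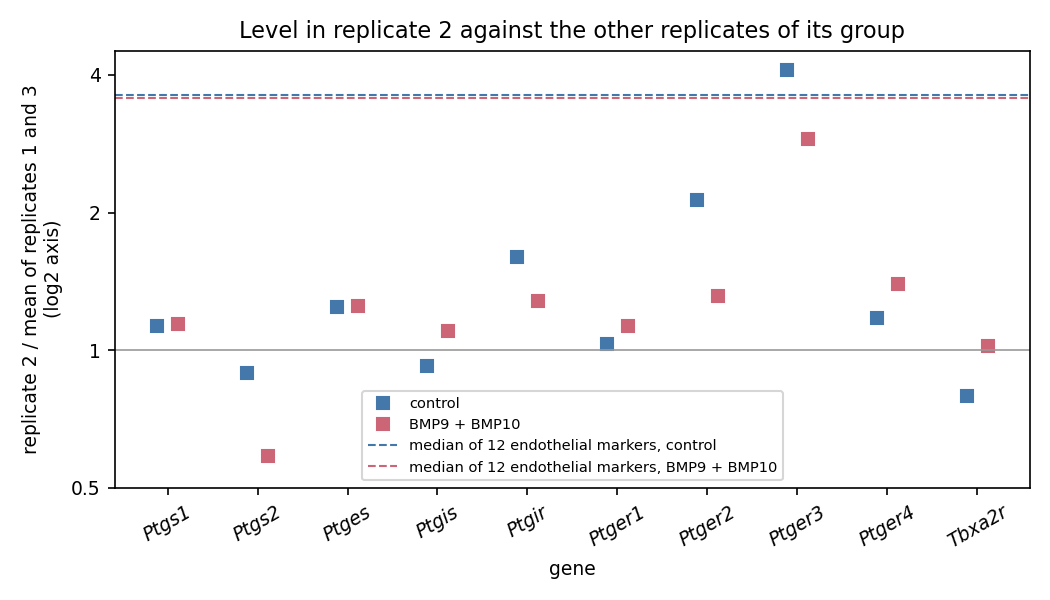
Level of each gene in replicate 2 divided by the mean of replicates 1 and 3 of the same group (log2 axis), in controls (blue) and stimulated samples (red), with dashed lines at the median of the same ratio, taken on value + 1, over 12 endothelial markers. Ptger3 and, in controls, Ptger2 stand highest, and Ptgs2 after stimulation stands lowest.

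The spread between replicates was not even across the genes. Replicate 2 was 3.62-fold above the mean of replicates 1 and 3 for the median endothelial marker in controls and 3.55-fold after stimulation. This was not particular to endothelial markers. For the median airway and alveolar epithelial marker the ratio was 3.91 and 2.33, and for the median mesothelial marker 3.91 and 5.20. It was smaller for the median fibroblast (1.34 and 1.67), smooth muscle (1.05 and 1.65) and macrophage (1.25 and 0.75) marker. The same ratio was 4.10 and 2.90 for Ptger3, 2.13 and 1.32 for Ptger2 and 1.6 and 1.28 for Ptgir. It was 1.24 and 1.25 for Ptges, 0.92 and 1.10 for Ptgis, and 0.89 and 0.59 for Ptgs2. The part of endothelial or other non-muscle RNA in these levels was not tested.

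Of the other genes of prostanoid and eicosanoid metabolism and signalling, 88 were tested on 7 lists. On these lists 5 genes rose, 3 fell and 80 did not pass, again against 13.4% called of all genes tested, and the median log2 change was -0.05. The blocked fit gave 14 rises and 20 falls among the 88, and over all genes it called 26.8%, of which 55.4% rose. Equal library totals gave 3 rises and 11 falls; this is a scaling that by its construction lowered the changes, with the median of all genes going from -0.03 to -0.20. None of the genes named by the rule changed sign with it.

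Upstream of the cyclooxygenases, phospholipases free arachidonic acid from membranes. Of 11 tested, 1 fell and none rose. The secreted phospholipase gene Pla2g2e was at 146, 197 and 174 in controls and at 77, 49 and 59 after stimulation, without overlap (-1.48 ± 0.22, limma adjusted p = 0.00804). Pla2g4a, the cytosolic phospholipase that feeds the cyclooxygenases in most cells and is named here after its values were seen, was at 5279, 2889 and 4931 in controls and at 6084, 2843 and 5561 after stimulation (0.12 ± 0.34, 95% interval -0.68 to 0.92, limma adjusted p = 0.86). Of 19 genes of arachidonate release and re-uptake into lipids, 1 rose and none fell. This was Acsl4, an acyl-CoA ligase that prefers arachidonic acid, at 2402, 2625 and 2529 in controls and 3511, 3460 and 3673 after stimulation (0.49 ± 0.07, limma adjusted p = 0.00784). Without stimulated replicate 3 its adjusted p was 0.0501.

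None of 11 other prostanoid synthase genes passed. The smallest p on that list belonged to Fam213b, a prostaglandin F synthase gene, at 967, 646 and 876 in controls and 647, 406 and 483 after stimulation (-0.70 ± 0.22, limma adjusted p = 0.0771; 0.00232 with the replicate block). The groups of Fam213b overlapped, between control replicate 2 and stimulated replicate 1. The thromboxane synthase gene Tbxas1, named after its values were seen, was at 829 ± 240 and 1114 ± 285 (limma adjusted p = 0.338). None of 10 genes of prostaglandin transport and breakdown passed, with a median log2 change of -0.43, and 5 of them fell with the replicate block. Zadh2, a prostaglandin reductase gene, was at 3043, 2048 and 2921 in controls and 1881, 1687 and 1923 after stimulation, without overlap (-0.53 ± 0.16, limma adjusted p = 0.0742; 0.00772 with the block). None of 5 genes of other receptors and their partners passed. Ppara, a nuclear receptor that fatty acids and eicosanoids can activate, was lowest in p on that list, at 30, 55 and 36 in controls and 19, 18 and 17 after stimulation (-1.08 ± 0.30, limma adjusted p = 0.0602; 0.0377 with the block, which called 3 falls on that list).

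Downstream of the receptors, 4 of 17 genes of G proteins and desensitisation were higher and 1 was lower, against 13.4% called of all genes tested. In the blocked fit 8 were higher and 3 lower, against 26.8% of all genes. Gnaq, the G protein subunit by which TP and EP1 reach calcium stores, was at 3150, 2747 and 3066 in controls and at 5177, 5117 and 5638 after stimulation, without overlap (0.83 ± 0.09, limma adjusted p = 0.0022). Gnai3, an inhibitory subunit, rose by 0.45 ± 0.09 (limma adjusted p = 0.0215), and this call did not survive equal library totals (0.0602) or leaving out control replicate 1 (0.0798), control replicate 3 (0.0517), stimulated replicate 2 (0.0505) or stimulated replicate 3 (0.0959). Gna13, whose mean rose from 3440 ± 93.3 to 4296 ± 316 and which is named after its values were seen, passed narrowly (limma adjusted p = 0.0452). The receptor kinase genes moved apart: Grk2 rose by 0.55 ± 0.09 (2135 ± 163 to 3134 ± 207, limma adjusted p = 0.0111) and Grk5 fell by 0.77 on the log2 scale (2114 ± 265 to 1262 ± 328, limma adjusted p = 0.0422). The call of Grk2 was lost without control replicate 3 (0.0525), and that of Grk5 when 1 library was left out, for each library except stimulated replicate 2. Without an intensity trend the calls of Gnai3 (0.0796), Grk2 (0.0511) and Grk5 (0.10) were lost as well. Of 15 genes of other eicosanoid branches, 1 fell and none rose. It was the lipoxygenase gene Aloxe3, with a mean of 27.7 ± 7.51 in controls and 8.67 ± 3.06 after stimulation, which is named after its values were seen (limma adjusted p = 0.0378).

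**Figure D5:**
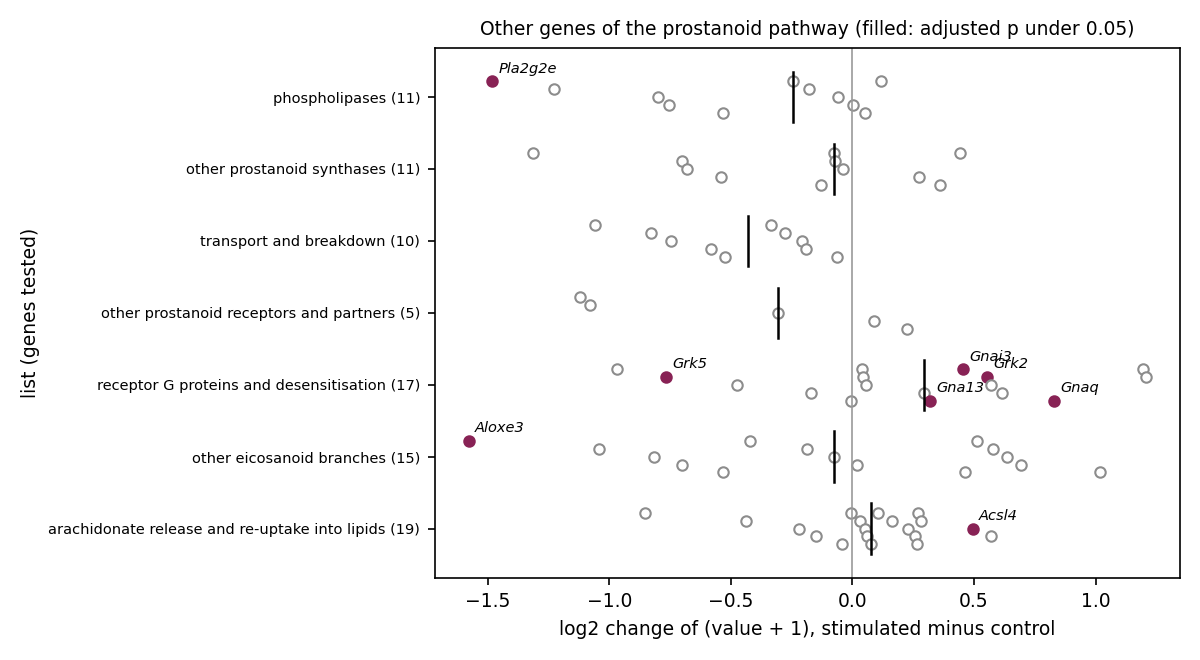
Log2 change, stimulated minus control, of 88 further genes on 7 lists, with 1 point per gene, filled and labelled where the limma adjusted p was under 0.05, and a bar at the median of each list. Filled points number 5 to the right of 0 and 3 to the left, and 5 of the 8 lie in the list of G proteins and desensitisation.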

How the data were processed

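The measurement was total RNA sequencing of 3 control and 3 stimulated mouse PASMC samples, from stranded libraries per the labels' protocols. Per the submitters' processing notes, the tools included DESeq2 1.18.1, featureCounts 1.6.3, STAR 2.6.1d and Trimmomatic 0.38, with mm10, hg38 and GRCh38 as builds. The sources used here give neither the annotation release nor the strand setting. The deposited values are a score: read counts that look as if each library had been multiplied by its own factor and then rounded. Whole numbers that were skipped or over-represented gave an estimate of each factor (0.584 to 1.32). A factor under 1 merges neighbouring counts, so reads were not recovered and no count model was used. Stimulated replicate 3 is the deepest, at an estimated 54.4 M reads in genes against 23.3 M to 28.0 M in the others.

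From these values, limma 3.58.1 in R 4.3.3 was fitted with an intensity trend to log2(value + 1) for 21743 genes (mean 1 or more; 42 were left out), with treatment as the only term, 4 residual degrees of freedom and Benjamini-Hochberg adjustment over all genes. Such changes understate those of low genes. Of the identifiers, 21747 of 21785 matched GENCODE M21. Levels per kilobase use the summed length of all annotated exons. The fit was also run on simulated data, with independent libraries and the same dispersion (spread of counts) for every gene. That run does not cover the differences between replicates seen in these data. Both groups share replicate numbers in the labels. After each group mean was subtracted, libraries with numbers 1, 2 and 3 correlated with their counterpart by 0.747, 0.741 and 0.218 (13185 genes, mean 50 or more), which met the limit set for pairing (each over 0.1), and the blocked fit is given as an alternative to the unpaired tests. That limit was checked on the same values that the blocked fit used. Control replicate 3 correlated more with stimulated replicate 1 (0.287), and the meaning of a number is not stated in the labels.

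The 10 genes and the lists were chosen with earlier results of these data known. All 10 are named; of each further list, up to 4 called genes (mean 50 or more, by p) are named, or else the gene with the smallest p. The alternatives were other pseudocounts, filters and scalings, no intensity trend, a replicate block, and leaving out libraries. Mast cell, platelet, epithelial, mesothelial and fibroblast markers were also summed. Of these lists, 1 of 4 platelet markers and 1 of 6 fibroblast markers fell, and no marker on the mast cell (2 tested of 7 listed), epithelial (9) and mesothelial (5) lists was called; 4 of 8 smooth muscle markers rose. The marker counts are from the unpaired fit, which can miss a change where replicates differ widely.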

Additional observations from a re-analysis of the deposited data

How the results depend on the processing

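Over the 17 alternatives to the fit, Ptgs2 (log2 change 2.05 to 2.48, limma adjusted p at most 0.0157) and Ptges (-1.47 to -1.18, at most 0.0233) passed in each, and Ptgis passed in 8 (0.31 to 0.55, adjusted p 0.0150 to 0.106). Ptger4 passed in 5, Ptgir in 2 and Ptgs1 in 1, the replicate block with equal library totals (-0.32, 0.0284). Ptger1, Ptger2, Ptger3 and Tbxa2r passed in none. Of the 10 genes, 5 were called with the replicate block and 5 with the block and equal library totals; leaving out 1 library gave 2 to 3. With equal library totals the calls were 1 rise and 2 falls.

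Over all genes, 2905 were called, of which 64.5% rose. This was 1610 without an intensity trend, 5837 with the replicate block, 6958 with the block and equal totals, and 917 to 2384 when 1 library was left out: 1164 without control replicate 1, 1163 without control replicate 3 and 917 without stimulated replicate 3. The share that rose was 51.2% with upper-quartile scaling and 33.4% with equal totals. Of the 88 further pathway genes, 8 were called; this was 14 with equal totals, 4 without an intensity trend, 34 with the replicate block, 40 with the block and equal totals, and 3 to 11 when 1 library was left out (4 without control replicate 1, 3 without control replicate 3, 5 without stimulated replicate 2 and 3 without stimulated replicate 3). The cause of these shifts was not tested. The 4 within-library ratios kept their direction in each alternative. The blocked sign-flip test of the 3 paired differences cannot go below 0.25 (Ptgs2 over Ptgs1, 2.37, p = 0.25, exact). Besides Ptgir and Ptger4, the replicate block changed no call among the 10 genes.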
